A study of Mus musculus with 2 samples.

Results

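The subject here is 9 microRNA genes best known from neurons, 2 of them hosted by the Slit genes, and their levels in the kidneys of mouse embryos. They are Mir132, Mir212, Mir137, Mir128-1, Mir128-2, Mir138-1, Mir138-2, Mir218-1 and Mir218-2, which were listed by name, and all 9 have a row among the 1973 microRNA genes of the deposited tables. The libraries hold RNA under 30 nucleotides (nt) from B6NCrl embryos at embryonic day 16.5, with no mutation or treatment, and each pools healthy kidneys of male and female embryos. Replicate 2 was made from 41 embryos, and no number is given for replicate 1. Both libraries form 1 group and carry the same donor record, so the spread between them may be partly technical, and no contrast between conditions exists. Levels are counts per 1000000 (CPM) of the reads counted on the strand of microRNA genes, 5317669 in replicate 1 and 7128703 in replicate 2, at which 3 reads, the limit that a count of 0 allows, equal 0.564 and 0.421 CPM.

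A microRNA is cut from a hairpin precursor as a short arm from its 5′ or 3′ side (5p or 3p), and it binds messenger RNAs mainly through its seed, bases 2 to 8. Mir132 and Mir212 are made from 1 transcript that neuronal activity induces through the transcription factor CREB. Mir137 restrains neural progenitors and the maturation of neurons, Mir128 genes dampen neuronal excitability, Mir138 genes limit the size of dendritic spines, and Mir218 genes are highly expressed in motor neurons. Slit2 and Slit3, which host the Mir218 genes, encode secreted ligands of Robo receptors. They guide axons, and in the embryonic kidney Slit2 and Robo2 restrict where the ureteric bud grows out.

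The mature arms show which reads can be told apart between genes. The 3 genes without a copy are shown first, since the arms of Mir132 and Mir212 share a seed. Sequences are from RefSeq on GRCm38.p6, which matched all 9 genes, and capitals mark the seed.
miR-132-3p (Mir132, chr11:75173723-75173744, + strand): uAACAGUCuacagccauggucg
miR-212-3p (Mir212, chr11:75173443-75173464, + strand): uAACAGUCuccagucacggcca
miR-137-3p (Mir137, chr3:118433901-118433923, + strand): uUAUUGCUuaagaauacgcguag

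The miR-132 and miR-212 3p arms have the same seed, AACAGUC, and no stretch longer than 10 nt is shared by their hairpins. Their 5p arms, and both arms of Mir137, have seeds found in no other gene of the RefSeq table. None of the 6 arms of these genes lies whole in another of the 1005 RefSeq hairpins or 2202 GENCODE M21 microRNA precursors searched. Mir132, Mir212 and Mir137 are called unique here for that reason.

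The other 6 genes are 3 pairs of copies, each pair with 1 identical arm. The arms are shown because a read of an identical arm fits both copies, while a read of the other arm fits 1.
miR-218-5p (Mir218-1 and Mir218-2): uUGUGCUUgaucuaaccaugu
miR-218-1-3p (Mir218-1, chr5:48224005-48224026, + strand): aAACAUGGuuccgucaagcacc
miR-218-2-3p (Mir218-2, chr11:35616882-35616903, + strand): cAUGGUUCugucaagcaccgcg
miR-128-3p (Mir128-1 and Mir128-2): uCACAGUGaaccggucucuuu
miR-128-1-5p (Mir128-1, chr1:128202369-128202389, + strand): cGGGGCCGuagcacugucuga
miR-128-2-5p (Mir128-2, chr9:112118679-112118701, - strand): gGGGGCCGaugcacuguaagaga
miR-138-5p (Mir138-1 and Mir138-2): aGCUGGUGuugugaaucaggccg
miR-138-1-3p (Mir138-1, chr9:122682936-122682957, + strand): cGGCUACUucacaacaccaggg
miR-138-2-3p (Mir138-2, chr8:94324359-94324379, + strand): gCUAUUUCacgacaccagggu

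The Slit-hosted hairpins show how short the common part is. Capitals mark the longest stretch that both hairpins hold, the 21-nt miR-218-5p arm and 1 further base on its 3′ side.
Mir218-1 hairpin (chr5:48223942-48224051, + strand): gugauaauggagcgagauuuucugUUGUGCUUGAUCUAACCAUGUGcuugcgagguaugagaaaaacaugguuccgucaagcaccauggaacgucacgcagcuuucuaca
Mir218-2 hairpin (chr11:35616816-35616925, + strand): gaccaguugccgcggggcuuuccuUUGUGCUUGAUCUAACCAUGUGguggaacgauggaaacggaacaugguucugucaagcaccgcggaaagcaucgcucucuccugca

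In the Mir128 pair the common stretch is 23 nt long and reaches 2 bases beyond the 5′ end of the 21-nt arm. In the Mir138 pair it is 24 nt long and reaches 1 base beyond the 5′ end of the 23-nt arm, where the annotated Mir138-2 hairpin begins. The arms of 1 copy only share no stretch longer than 10 nt between the Mir218 genes, 9 nt between the Mir138 genes and 7 nt between the Mir128 genes. The seeds of the miR-128-1-5p and miR-128-2-5p arms are nevertheless the same, GGGGCCG, while those of the 3p arms of the Mir218 and Mir138 copies differ. Reads that map to several places, 28.0% of all reads in replicate 1 and 25.3% in replicate 2, are held by the tables in a row that names no gene. The counts of these 6 genes are therefore a part of the reads their transcripts gave, of unknown size, and the tables do not say which arm a read came from.

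**Figure D1:**
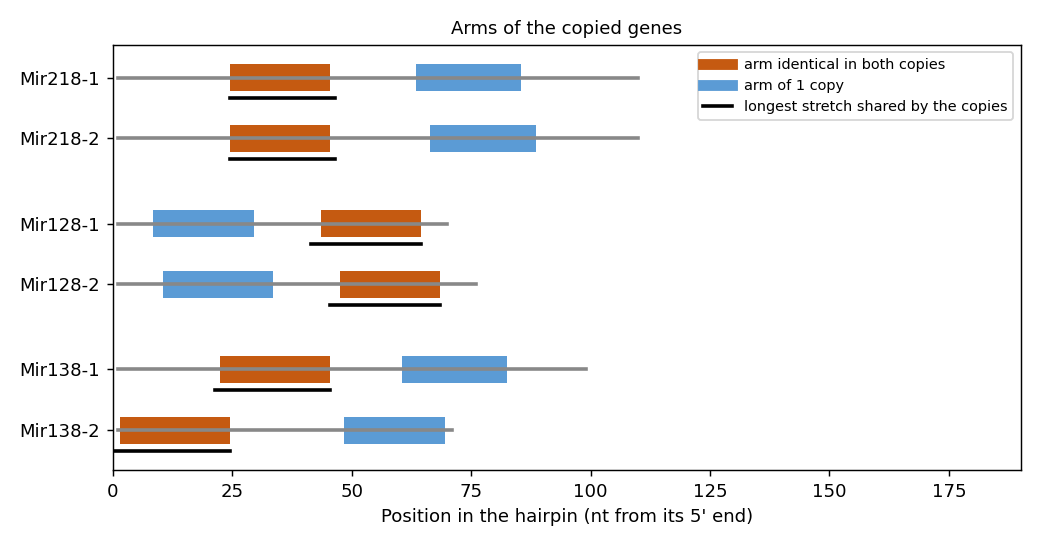
Positions of the mature arms along the hairpins of the 3 copied pairs (x axis, nt from the 5′ end). Orange boxes are arms identical in both copies, blue boxes are arms of 1 copy, and black lines are the longest shared stretches of 22 nt (Mir218), 23 nt (Mir128) and 24 nt (Mir138), which cover the identical arm and at most 2 further bases.

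Each gene lies inside a transcript on its own strand, by GENCODE M21 on mm10. Mir218-1 is in an intron of Slit2 (chromosome 5, 47983138 to 48307733), and Mir218-2 is in an intron of Slit3 (chromosome 11, 35121224 to 35708507). Mir128-1 is in an intron of R3hdm1, which encodes an R3H-domain protein (chromosome 1, 128103301 to 128237736). Mir128-2 is in an intron of Arpp21, a neuronal cAMP-regulated phosphoprotein gene (chromosome 9, 112065091 to 112235938). Mir212 (chromosome 11, 75173388 to 75173478) and Mir132 (75173682 to 75173747) are 203 bases apart in an intron of the noncoding gene 1700016P03Rik. Mir137 (chromosome 3, 118433857 to 118433929) overlaps an exon of the noncoding Gm26871, Mir138-2 (chromosome 8, 94324311 to 94324381) an exon of the long noncoding RNA gene C78859, and Mir138-1 (chromosome 9, 122682876 to 122682974) an exon of the pseudogene Gm47135. Host transcripts were not measured in these libraries of small RNA.

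Each of the 9 genes reached 1 CPM in both libraries, which is called detected here, as did 387 of the 1973 genes of the tables (19.6%). Together the 9 genes held 3512 reads, 0.0660% of those in microRNA genes, in replicate 1 and 4987 reads, 0.0700%, in replicate 2, a mean of 0.0680% ± 0.00277 (SD, n = 2). Mir132 alone gave 52.8% and 54.3% of these reads. The other 8 genes thus shared less than the reads of Mir132 in either library. Over the detected genes of all kinds the median was 64.2 CPM, and 3 of the 9 lay above it: Mir132, Mir137 and Mir128-1. Less RNA per cell and fewer cells of a type cannot be told apart in whole kidneys.

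**Figure D2:**
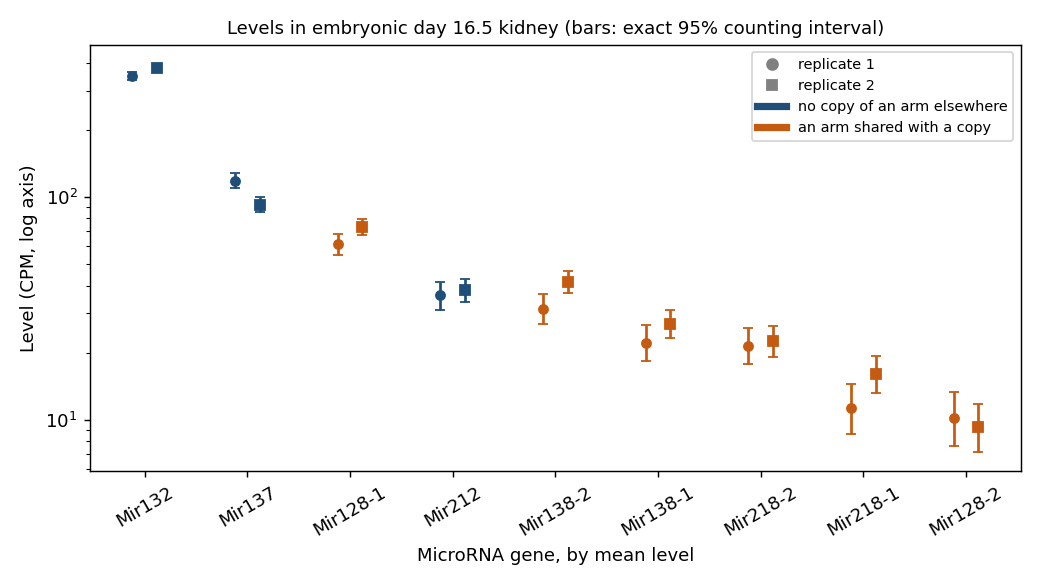
Level of each gene in each library (y axis, CPM on a log axis), ordered by mean level, with circles for replicate 1, squares for replicate 2 and bars for the exact 95% interval of counting error. Mir132 stands apart at 349 and 380 CPM, and Mir128-2 is lowest at 10.2 and 9.26 CPM.

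Mir132, of the activity-induced pair, had 1854 reads in replicate 1 and 2709 in replicate 2. These are 349 CPM (exact Clopper-Pearson 95% interval 333 to 365) and 380 CPM (366 to 395), a mean of 364 ± 22.2 CPM (SD, n = 2). It ranked 113 among the 387 detected genes, and 70.8% of them lay below it. Mir212 had 192 and 271 reads, or 36.1 CPM (31.2 to 41.6) and 38.0 CPM (33.6 to 42.8), with a mean of 37.1 ± 1.35 CPM. It ranked 218, with 43.7% of detected genes below it.

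Mir132 was counted far above its neighbour in both libraries, and the size of the gap barely moved between them. The ratio of Mir132 to Mir212 was 9.66 in replicate 1 (95% interval of counting error 8.32 to 11.3) and 9.996 in replicate 2 (8.82 to 11.4). The mean log2 ratio was 3.30 ± 0.035 (SD, n = 2), 9.82-fold. For scale, 51 pairs of unique microRNA genes at most 1000 bases apart on 1 strand differed by 1.01-fold to 204-fold with a median of 6.83-fold, and the Mir132 and Mir212 pair was number 32 from the narrowest. This set of pairs was chosen after the values were seen. The genes of the shared AACAGUC seed summed to 385 and 418 CPM, a mean of 401 ± 23.5 CPM.

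Mir137, of neural progenitors, was counted lower in replicate 2 than in replicate 1. It had 628 and 657 reads, or 118 CPM (109 to 128) and 92.2 CPM (85.2 to 99.5), with a mean of 105 ± 18.3 CPM and rank 178 among detected genes. Its counting intervals in the libraries do not overlap. Nor do those of Mir132 and of Mir138-2, which were counted higher in replicate 2. Such intervals leave out the spread between pools. With a coefficient of variation of 0.2 between pools Mir137 did not pass the edgeR exact test. No other microRNA gene of the RefSeq table has a seed of either Mir137 arm, so this gene stands alone for its seed.

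Of the intronic Mir128 pair, 1 copy gave most of the counted reads. Mir128-1, in R3hdm1, had 325 and 522 reads, or 61.1 CPM (54.7 to 68.1) and 73.2 CPM (67.1 to 79.8), a mean of 67.2 ± 8.56 CPM. Mir128-2, in Arpp21, had 54 and 66 reads, or 10.2 CPM (7.63 to 13.2) and 9.26 CPM (7.16 to 11.8), a mean of 9.71 ± 0.634 CPM, the lowest of the 9. All of these reads lay on the strand of the gene, as did those of the other members but for 1 read of Mir212 in replicate 2. Over all microRNA genes 2.14% and 2.24% of reads lay on the opposite strand.

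Mir128-1 exceeded Mir128-2 by 6.02-fold in replicate 1 (4.501 to 8.18) and 7.91-fold in replicate 2 (6.11 to 10.4). The log2 ratio of Mir128-2 to Mir128-1 was -2.79 ± 0.28 (SD, n = 2). The gap is many times the spread between libraries. Since the miR-128-3p arm is identical in both genes, it is a difference in reads that could be assigned to 1 copy, and how far it holds for all reads of the copies was not tested.

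The Mir138 copies lay closer together, with the chromosome 8 gene higher. Mir138-2 had 167 and 296 reads, or 31.4 CPM (26.8 to 36.5) and 41.5 CPM (36.9 to 46.5), a mean of 36.5 ± 7.15 CPM. Mir138-1 had 118 and 192 reads, or 22.2 CPM (18.4 to 26.6) and 26.9 CPM (23.3 to 31.0), a mean of 24.6 ± 3.35 CPM. The higher library of Mir138-1 stayed below the lower library of Mir138-2. The ratio of Mir138-2 to Mir138-1 was 1.42 (1.11 to 1.81) and 1.54 (1.28 to 1.86), a mean log2 ratio of 0.56 ± 0.087 (SD, n = 2), 1.48-fold.

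Of the Slit-hosted pair, the gene in Slit3 was counted higher than the gene in Slit2 in both libraries. Mir218-2, in Slit3, had 114 and 160 reads, or 21.4 CPM (17.7 to 25.8) and 22.4 CPM (19.1 to 26.2), a mean of 21.9 ± 0.712 CPM. Mir218-1, in Slit2, had 60 and 114 reads, or 11.3 CPM (8.61 to 14.5) and 16.0 CPM (13.2 to 19.2), a mean of 13.6 ± 3.33 CPM. The values of the copies do not overlap, although the counting intervals of Mir218-1 and Mir218-2 overlap slightly in replicate 2.

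The ratio of Mir218-2 to Mir218-1 was 1.90 in replicate 1 (1.38 to 2.64) and 1.40 in replicate 2 (1.10 to 1.80). The mean log2 ratio was 0.71 ± 0.31 (SD, n = 2), 1.63-fold, and both intervals of counting error lie above 1. The gene in Slit3 gave 65.5% and 58.4% of the reads counted for the pair. With 2 libraries an exact sign-flip test of any of these 4 ratios cannot go below p = 0.5, so none was run. The summed level of the pair, 32.7 and 38.4 CPM, was the lowest of the 5 seed groups, below 76.9 ± 7.93 CPM for the Mir128 genes and 61.0 ± 10.5 CPM for the Mir138 genes. Since an unknown share of reads is missing from the copied genes, the sums of copied genes are lower limits and the order of the groups is uncertain.

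In order of mean counted level the genes ran Mir132, Mir137, Mir128-1, Mir212, Mir138-2, Mir138-1, Mir218-2, Mir218-1 and Mir128-2. Levels of the copied genes are lower limits, so their places among the unique genes are uncertain beyond the spread between libraries. Neighbours in this order were compared within each library, and a gap was said to exceed the spread when the mean log2 ratio was over 2 SD. Mir132 exceeded Mir137 by 3.49-fold, Mir128-1 exceeded Mir212 by 1.81-fold, and the Mir138 and Mir218 copies differed from each other as above. The other 4 gaps did not exceed the spread: Mir137 over Mir128-1 (1.56-fold), Mir212 over Mir138-2 (1.03-fold), Mir138-1 over Mir218-2 (1.11-fold) and Mir218-1 over Mir128-2 (1.39-fold). Levels of Mir212 and Mir138-2 crossed between the libraries. The mature arms are 21 to 23 nt long, so CPM was not scaled by length. All gaps are in counted reads, and whether arms of different sequence were captured alike was not tested.

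**Figure D3:**
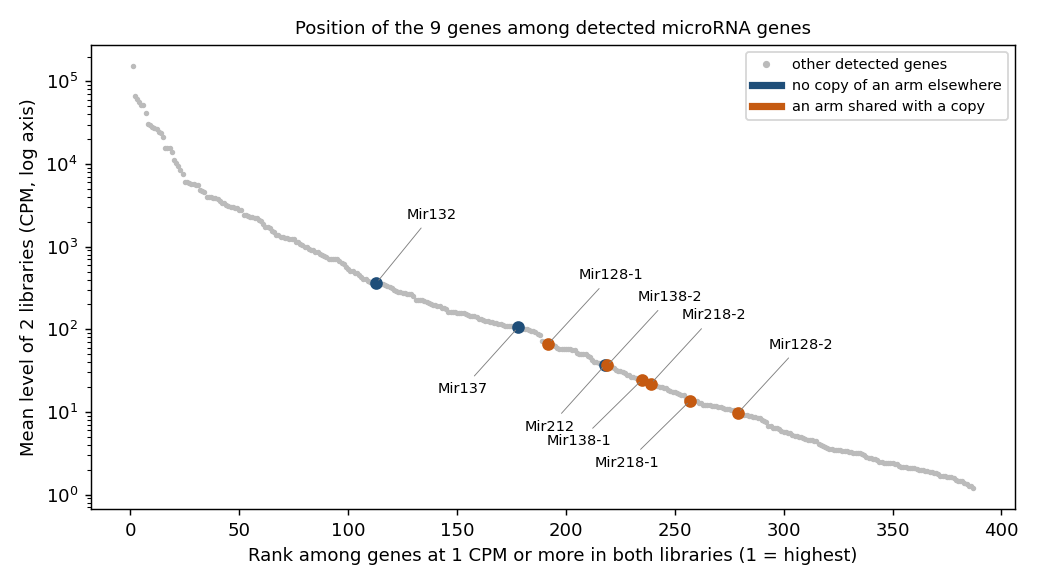
Mean level of the 387 detected microRNA genes (y axis, CPM on a log axis) against their rank (x axis), with the 9 genes named. Blue points have no copy of an arm elsewhere and orange points share an arm with a copy, and the 9 lie between rank 113 (Mir132) and rank 279 (Mir128-2). Levels of orange points are lower limits, so their ranks are uncertain.

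Unique genes and copied genes of the whole table give the frame for these levels. Of the 809 genes without a shared arm 298 were detected, with a median of 77.8 CPM, and 2 of the 3 unique members, Mir132 and Mir137, lay above it. Of the 333 genes with an arm in another gene 54 were detected, with a median of 46.7 CPM, and 1 of the 6 copied members, Mir128-1, lay above it. The copied members ran from 9.71 to 67.2 CPM and the unique ones from 37.1 to 364 CPM, so the ranges overlap. The remaining 831 genes could not be classed, as no sequence was matched to them.

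Across the table, 23 pairs of genes share an arm that lies in no further gene and have at least 10 reads each. Some pairs share a gene, so they are not independent. The higher copy was the same in both libraries in 23 of 23, with a median difference of 4.40-fold, from 1.17-fold to 52.1-fold, and 16 pairs differed by over 2-fold. Counted from the narrowest, the Mir138 pair was number 5, the Mir218 pair number 7 and the Mir128 pair number 15. The Slit-hosted copies were thus among the closer pairs of the table and the Mir128 copies among the wider.

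**Figure D4:**
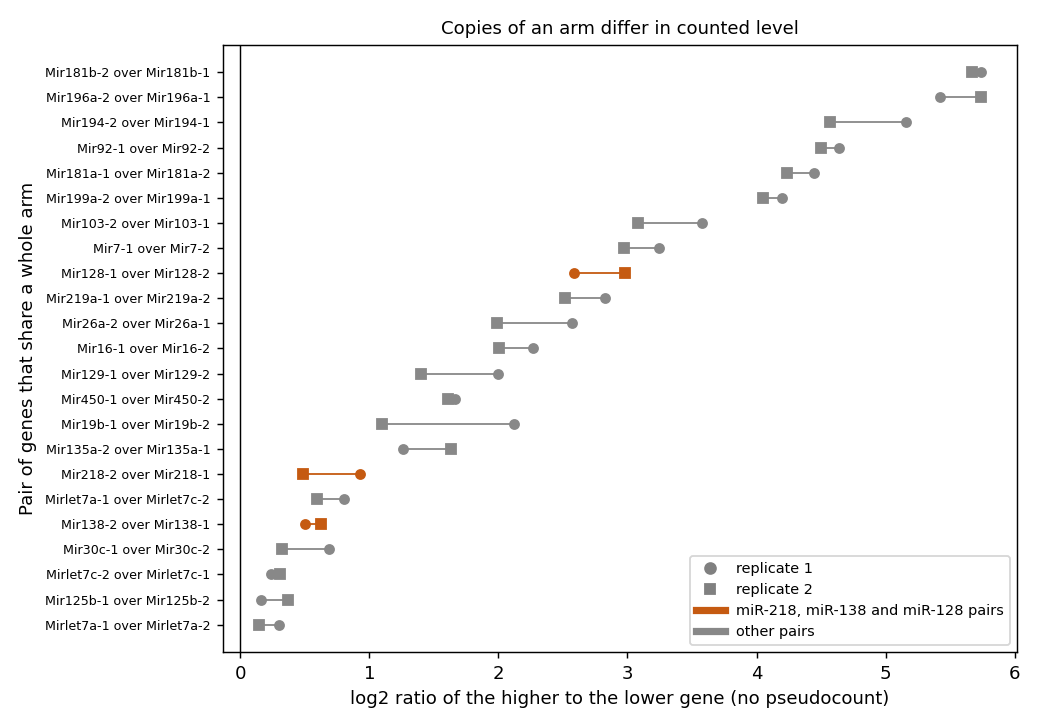
The log2 ratio of the higher to the lower gene (x axis, no pseudocount) for the 23 pairs that share a whole arm (y axis), with circles for replicate 1 and squares for replicate 2. The Mir138 and Mir218 pairs lie at 0.56 and 0.71 on average and the Mir128 pair at 2.79, against a median of 2.14.

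The rows of Mir124a and Mir9 genes, taken as markers of neurons, held few reads. Of these 5 rows, whose microRNAs are abundant in brain, 1 was detected, against 19.6% of the 1973 genes of the tables. The 5 rows summed to 3.20 CPM in replicate 1 and 1.96 CPM in replicate 2. Mir124a-2 and Mir124a-3 had no read, Mir124a-1 and Mir9-2 had 0 and 1 read, and Mir9-3 had 17 and 12. The third Mir9 gene, Mir9-1, had no row under that symbol. Mir9-2 and Mir9-3 share an arm with another gene, and no sequence was matched to the Mir124a genes. Reads of arms that these genes share would be missing from their rows too. The low values therefore do not measure all neuronal RNA and cannot tell whether it was scarce. Of the genes taken as kidney markers 10 of 10 were detected, at 29.2% and 27.6% of reads in sum. Mir10a and Mir10b, genes of Hox loci, held 22.8% and 20.4%, the 5 epithelial genes of the miR-200 family 2.63% and 2.68%, and 3 genes of the miR-30 family 3.80% and 4.54%. Endothelial Mir126a held 5.26% and 5.16%, and 4 of 4 blood markers summed to 654 and 845 CPM.

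Of other microRNA genes linked with neurons, 24 rows of a list, 20 were detected, against 19.6% of all 1973 genes. By class, 36.8% of unique genes, 16.2% of copied genes and 4.21% of genes without a matched sequence were detected. The list was chosen with earlier results of these data known, so its share is a description only. The median of the list was 8.86 CPM, against 36.5 CPM for the 9 genes, and takes in the Mir124a and Mir9 rows above. The highest were Mir181c at 3943 ± 76.2 CPM, the imprinted-locus Mir134 at 340 ± 2.56 CPM, Mir125b-1 at 325 ± 25.8 CPM and Mir125b-2 at 270 ± 6.21 CPM (SD, n = 2). Several of these are abundant in tissues other than brain as well, and at least 12 of the 24 share an arm with another gene. The Mir124a genes and Mir383 could not be classed, as no sequence was matched to them. Among genes with a matched sequence, those that share a seed with a member but are no member were below detection. The seeds of the other 831 genes, 35 of them detected, could not be compared. Mir7002, with the seed of miR-218-5p, had 0.376 and 0 CPM, below the limit of 3 reads, and Mir496b, with the seed of miR-218-1-3p, had no read.

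The genes whose levels in the 2 libraries were most like those of the members were taken by distance in log2(CPM + 1). Nearest to Mir132 were Mir669o (distance 0.068) and Mir223 of myeloid cells (0.083), and nearest to Mir212 were Mir33 (0.085) and Mir325 (0.099). Mir137 was nearest to Mir6236 (0.11) and Mir5099 (0.17), and Mir128-1 to Mir329 (0.062) and Mir485 (0.099). Mir138-1 was nearest to Mir450-1 (0.044) and Mir193b (0.084), and Mir138-2 to Mir673 (0.060) and Mir103-2 (0.11). Mir218-1 was nearest to Mir666 (0.057) and Mir3080 (0.11), and Mir218-2 to Mir539 (0.22) and Mir760 (0.26). Likeness over 2 libraries of 1 group is likeness of level only.

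Replicate 2 was set against replicate 1, which compares these pools and not conditions. Of the 9 genes only Mir137 passed, lower in replicate 2 with a log2 ratio of -0.50 ± 0.080 (counting SE), in the exact binomial test of reads with Benjamini-Hochberg adjustment over 455 genes (adjusted p = 4.3e-09). That test called 33.6% of all genes tested, 15.8% higher and 17.8% lower in replicate 2, so 1 of 9 members is no more than the background. The log2 ratio of the other 8 ran from -0.28 (Mir128-2) to 0.35 (Mir218-1), and the median of the 9 was -0.019 against 0.0077 for all 455 genes. The test takes in counting error only. With a biological coefficient of variation (BCV) of 0.2 in the edgeR exact test, 0 of 9 members passed after adjustment, against 3 of 455 genes (0.659%). At an unadjusted p of 0.05 it was 0 of 9 against 18 of 455 (3.96%).

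These ratios used TMM factors, which lower every log2 ratio by 0.14 against library totals. Of the genes called, 47.1% were higher in replicate 2 with TMM and 78.8% with totals. With totals 4 of 9 members passed the binomial test, a share near the 42.4% called among all 455 genes. They were Mir137, lower (-0.36), and Mir132 (0.12), Mir128-1 (0.26) and Mir138-2 (0.40), higher. Since totals shift all genes alike, 3 members near 0 turned sign: Mir132 (-0.019 to 0.12), Mir212 (-0.070 to 0.073) and Mir218-2 (-0.079 to 0.064). Of the list of 24 other neuron-linked genes, 20 were tested with TMM, and 1 passed as higher (Mir330, 0.17) and 3 as lower (Mir181c, -0.10, Mir134, -0.16, and Mir125b-2, -0.19). Their median log2 ratio was -0.028.

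**Figure D5:**
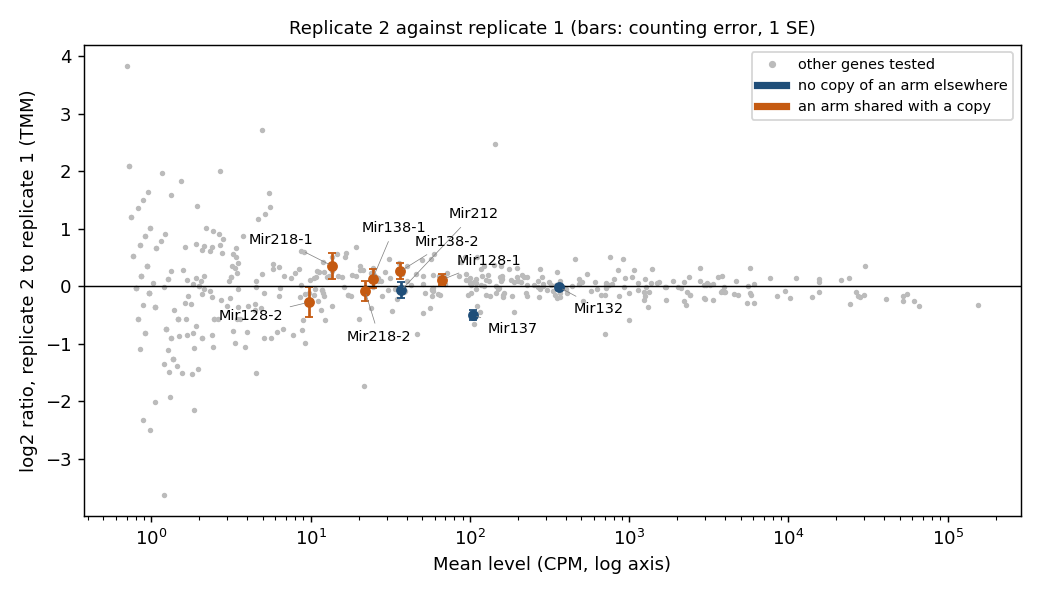
The log2 ratio of replicate 2 to replicate 1 after TMM (y axis) against mean level (x axis, CPM on a log axis) for the 455 genes tested, with bars of 1 counting SE on the 9 genes. Mir137 lies lowest of the 9 at -0.50, and the other 8 lie between -0.28 and 0.35.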

How the data were processed

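The authors deposited raw counts of reads per microRNA gene for 2 libraries, on assembly mm10 with annotation M4 per the text files beside the tables. The sources used here name neither the aligner nor the counting program. Of 3 columns of counts, the first equals the sum of the others in all 1973 gene rows. The second, which holds nearly all reads, was taken as the strand of the gene. Rows that name no gene hold 55.2% and 51.5% of reads and stayed out of library sizes. Symbols came from GENCODE M21 on GRCm38 (mm10), which matched 1894 rows, and the 79 others hold 3 reads. Mature arms came from RefSeq and were searched in RefSeq hairpins and GENCODE precursors, on the strand of the gene.

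CPM, means, SDs and exact Clopper-Pearson 95% intervals were computed in Python 3.11.15 with SciPy 1.17.1. Intervals and floors take in counting error alone: the reads carry no molecular identifiers and may be copies of 1 molecule. Whether different sequences were captured alike was not tested, and a bias shared by both libraries would not show in their spread. The 455 genes with at least 10 reads summed were compared between libraries with an exact conditional binomial test, scaled by TMM factors of 0.952 and 1.05 (edgeR 4.0.16), with Benjamini-Hochberg adjustment over all of them. Ratios had 0.5 reads added. The edgeR quasi-likelihood test has no residual degrees of freedom with 1 library a side. The binomial test was tested on simulated data. Size factors of DESeq2 1.42.0, library totals, no filter on low counts, a fixed BCV and other settings were tried as alternatives.

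The members and gene lists were chosen with earlier results of these data known. Named are the members, the 4 highest genes of the neuron-linked list, detected genes with a member's seed, the 2 nearest genes of each member at 10 CPM or more in both libraries, and hosts. The seed-sharing genes below detection, the neuron-linked genes that passed between libraries and the pairs of neighbouring genes were added after their values were seen.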

Additional observations from a re-analysis of the deposited data

How the results depend on the processing

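All 4 pair ratios, the summed share and the 9 levels moved by less than 1 SD with reads of either strand, and the pair ratios also with 1 CPM added to both genes. The members held 0 opposite-strand reads in replicate 1 and 1 in replicate 2, so reads of either strand could hardly move these values. Leaving out either library of 2 moves a mean by a fixed part of the SD, so it says nothing of stability. The 4 pair ratios kept their direction in each library. Taking all reads as denominator adds the rows that name no gene, so the levels of all 9 genes had to fall. The level of Mir132 became 170 CPM. At 10 CPM in both libraries 8 of 9 genes were detected, without Mir128-2. The count of members that passed between libraries was 1 with TMM factors, with DESeq2 size factors and with no filter on low counts, 4 with library totals, which called 193 of all 455 genes against 153 with TMM, and 0 in the edgeR exact test with a BCV of 0.2, which called 3. With library totals, which shift every ratio by 0.14, the log2 ratio turned from -0.019 to 0.12 for Mir132, from -0.070 to 0.073 for Mir212 and from -0.079 to 0.064 for Mir218-2. Mir128-2 and Mir218-1 rest on 54 and 60 reads in replicate 1, the fewest of the 9. No paired analysis was possible because the series holds 1 group.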
